A study of Homo sapiens with 4 samples.

Results

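The EGF receptor family and its ligands were followed as 10 genes, chosen by symbol: the receptor genes EGFR, ERBB2 and ERBB3, the ligand genes HBEGF, AREG, EREG, TGFA and NRG1, and the receptor inhibitor genes ERRFI1 and LRIG1. All 10 were listed in each of the 4 tables, among 20474 genes common to them. The libraries come from DU145, an androgen-independent human prostate cancer cell line of epithelial origin, in which EGFR signalling by self-made ligands is known to support growth. Cells labelled PTBP1 knockdown received 1 of 2 different PTBP1 siRNAs, siPTBP1#1 or siPTBP1#2 (1 library each). Cells labelled DNMT3B-L knockdown received siDNMT3B-L (1 library), and cells of genotype WT received the negative control siRNA (1 library). All were transfected with siRNA at 75 nM, for 48 h. PTBP1 is an RNA-binding protein best known as a repressor of exon inclusion, and DNMT3B-L is named in the labels as the target of the siRNA against the DNA methyltransferase gene DNMT3B.

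The receptors of this family are tyrosine kinases that pair on ligand binding and pass the signal to the RAS and MAPK kinases and to PI3K and AKT. EGFR binds AREG, EREG, HBEGF and TGFA, whereas ERBB3 binds neuregulins such as NRG1, has little kinase activity of its own and signals mostly through pairing with ERBB2, which has no known ligand. The ligands are made as membrane precursors and are released by metalloproteases, chiefly ADAM17 and ADAM10. ERRFI1 (MIG6) binds and blocks the active kinase and is itself induced by the pathway, and LRIG1 promotes the degradation of the receptors.

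The libraries held between 22332245 and 24088975 read pairs. PTBP1 stood at 268 CPM (read pairs scaled to a common library total) with siPTBP1#1, 135 CPM with siPTBP1#2 and 982 CPM with siDNMT3B-L, against 928 CPM in the control library. DNMT3B stood at 5.46 CPM with siDNMT3B-L, against 9.77 CPM in the control library, as a value for the whole gene that does not resolve the isoform. The epithelial markers that the cell line should carry were KRT8, KRT18, KRT19, EPCAM and CDH1. All 5 were listed and summed to between 942 and 2007 CPM, lowest with siPTBP1#2. Keratins made most of this sum. In the control library KRT8 stood at 1444, KRT19 at 280, KRT18 at 259, CDH1 at 19.95 and EPCAM at 3.73 CPM. The part of these markers in the members' values was not tested. The 2 listed fibroblast markers summed to at most 27.2 CPM, the 4 endothelial markers to at most 1.87 CPM and the 2 listed leukocyte markers to at most 1.04 CPM. The fibroblast marker COL1A1, at 16.1 to 27.0 CPM, stood above EPCAM in every library and above CDH1 in all but the control library. In such bulk libraries, fewer cells with a transcript and less of it per cell cannot be told apart.

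The 300 bases around the annotated starts of 3 ligand genes are shown, because by plain CPM AREG, EREG and HBEGF were the members more than 1.5-fold higher with both PTBP1 siRNAs, although for EREG with siPTBP1#1 the counting interval included 1. The sequences are those of RefSeq on GRCh38.p14, each from 250 bases before the start to 50 bases from it, in the direction of transcription: AREG on the plus strand at chr4:74444886-74445185, EREG on the plus strand at chr4:74364895-74365194 and HBEGF on the minus strand at chr5:140346554-140346853. Capitals mark matches on either strand. The words searched were the cyclic AMP response element TGACGTCA, whose first part TGACG was also searched by itself and overlaps it. Further words were the TATA box (spelled TATAAA), the TEAD word (spelled GGAATG) and the GC box (spelled GGGCGG). The AP-1 word, spelled TGANTCA, stands in 7.71% of all windows and had 0 matches in these 3.
AREG: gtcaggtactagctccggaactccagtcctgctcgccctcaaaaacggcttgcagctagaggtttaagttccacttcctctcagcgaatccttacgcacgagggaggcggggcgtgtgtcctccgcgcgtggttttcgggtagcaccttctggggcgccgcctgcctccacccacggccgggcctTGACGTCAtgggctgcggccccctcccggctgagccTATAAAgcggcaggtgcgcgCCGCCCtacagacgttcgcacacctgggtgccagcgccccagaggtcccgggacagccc
EREG: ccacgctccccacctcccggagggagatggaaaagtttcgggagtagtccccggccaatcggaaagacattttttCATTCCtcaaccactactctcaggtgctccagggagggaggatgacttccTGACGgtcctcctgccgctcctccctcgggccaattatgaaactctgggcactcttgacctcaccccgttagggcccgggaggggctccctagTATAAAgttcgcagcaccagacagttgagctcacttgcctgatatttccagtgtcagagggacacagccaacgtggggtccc
HBEGF: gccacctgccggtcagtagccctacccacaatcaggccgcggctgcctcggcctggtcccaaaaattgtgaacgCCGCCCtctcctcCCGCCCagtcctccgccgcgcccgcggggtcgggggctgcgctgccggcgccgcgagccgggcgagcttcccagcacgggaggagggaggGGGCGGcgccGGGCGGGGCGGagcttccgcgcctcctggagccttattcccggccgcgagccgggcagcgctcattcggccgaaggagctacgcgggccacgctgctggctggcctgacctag

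The AREG window held the full TGACGTCA 65 bases before the start and a TATAAA 29 bases before it, with a GC box at 9 bases. TGACGTCA stood in 1.85% and TATAAA in 11.5% of the 35116 promoter windows of the same length in the table. The EREG window held a TATAAA 32 bases before the start, 1 TGACG at 125 bases and 1 TEAD word at 175 bases before it, words found in 24.6% and 14.0% of all windows. The HBEGF window held 0 TATAAA and 5 GC boxes, a word that 45.0% of all windows hold at least once, and its GC content was 75% against 66.3% for AREG and 57.7% for EREG. EREG (74365143 to 74388751) and AREG (74445134 to 74455009) lie on chromosome 4 with 56382 bases between them, while HBEGF lies on chromosome 5 from 140332843 to 140346631 (GENCODE v29, GRCh38). Windows of 8 of the 10 members were in the table; those of ERBB3 and NRG1 were not used here. A match is a description of the letters, and binding was not measured.

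At baseline, the control library placed the inhibitor ERRFI1 first per length, at 43.9 CPM per kb of annotated exons. It was followed by ERBB2 at 28.5, HBEGF at 19.7, EGFR at 12.8 and TGFA at 6.70 CPM per kb. ERBB3 (3.36 CPM per kb) and LRIG1 (3.16 CPM per kb) came next and had overlapping 95% counting intervals. AREG followed at 1.78, with NRG1 at 0.255 and EREG at 0.210 CPM per kb, whose intervals also overlapped. All other neighbours in this order had intervals that did not overlap. ERBB2 and EGFR were thus the main receptor transcripts, and HBEGF the main ligand transcript of the 5. Of the 14903 genes tested for which an annotated length was at hand, 16.1% stood as high as HBEGF or higher per length, 24.5% as high as EGFR and 97.2% as high as EREG. HBEGF took the second place above ERBB2 in both PTBP1 siRNA libraries and the third with siDNMT3B-L, and AREG stood sixth in all 3 targeting libraries, against eighth in the control library. Its counting interval overlapped that of LRIG1, the next lower, with siPTBP1#1 (2.67 to 3.81 against 2.66 to 3.18 CPM per kb) and that of TGFA, the next higher, with siDNMT3B-L (4.99 to 6.56 against 6.48 to 7.47 CPM per kb). Lengths count every annotated exon, so rarely used exons lower the value of genes with many transcripts.

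**Figure D1:**
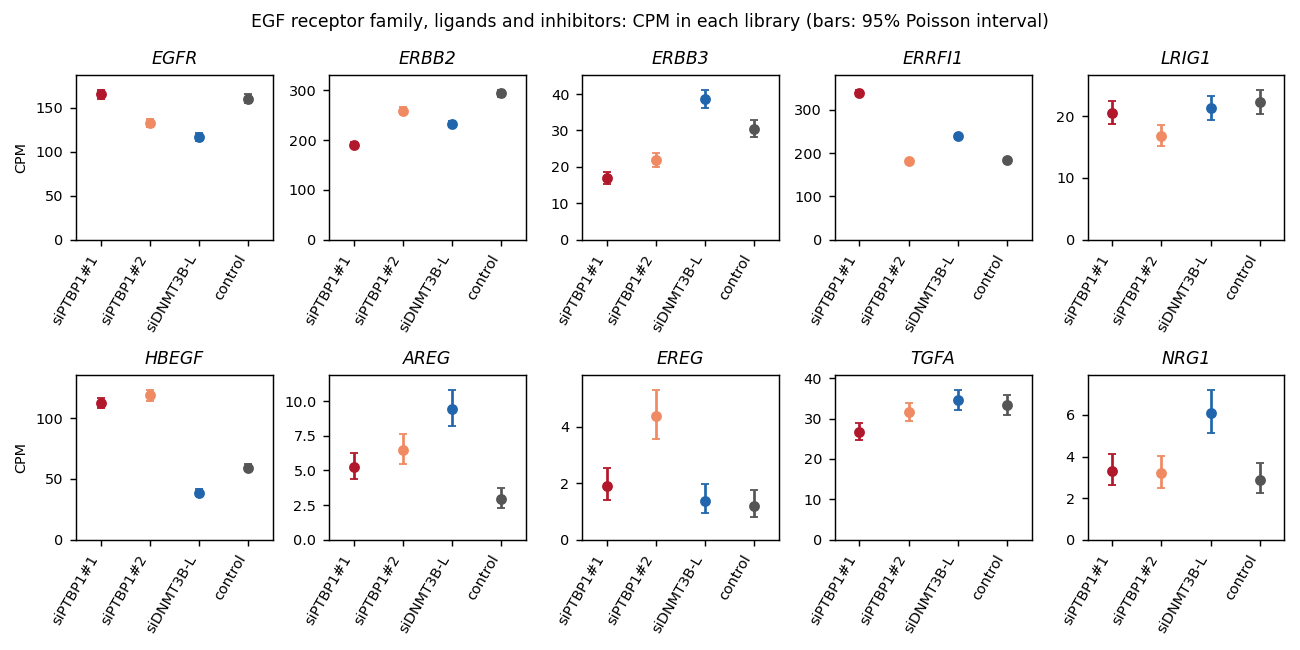
CPM of each family member (panels) in the siPTBP1#1, siPTBP1#2, siDNMT3B-L and control libraries, with 95% Poisson intervals that cover counting error only. HBEGF stands near 112 and 119 CPM with the PTBP1 siRNAs, against 38.8 CPM with siDNMT3B-L and 59.4 CPM in the control library.

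For the response to each siRNA, the question was which members differed from the control library, and with which siRNA. A member was counted when the log2 ratio of CPM + 1 reached 1.5-fold, a rule with no test since each targeting siRNA had 1 library. With siPTBP1#1, 3 of 10 members were that much higher (AREG, HBEGF and ERRFI1), where 4.52% of the 14942 genes tested were, and 2 were that much lower (ERBB2 and ERBB3), where 7.36% were. With siPTBP1#2, 3 members were higher (AREG, EREG and HBEGF) against 4.08% of all genes, and 0 were lower against 8.19%. With siDNMT3B-L, 2 were higher (AREG and NRG1) against 4.6% of all genes, and 1 was lower (HBEGF) against 7.3%. Higher with both PTBP1 siRNAs were 2 members (AREG and HBEGF), where 0.95% of all genes were, and 0 were lower with both, where 1.86% were. The count with both depends on the pseudocount: it was 3 with 0.1 (EREG added, 2.08% of all genes) and 1 with 5 (HBEGF, 0.375%), and HBEGF with siDNMT3B-L missed 1.5-fold with a pseudocount of 5. At 2-fold, 0 were higher (0.629% of all genes) and 0 lower (1.51%) with siPTBP1#1, 1 was higher (EREG; 0.509%) and 0 lower (1.65%) with siPTBP1#2, and 1 was higher (AREG; 0.408%) and 0 lower (1.37%) with siDNMT3B-L. With both PTBP1 siRNAs, 0 were 2-fold higher (0.114%) and 0 lower (0.174%). All of these ratios share the single control library. The median log2 ratio of the 10 members was 0.10 with siPTBP1#1, -0.05 with siPTBP1#2 and 0.09 with siDNMT3B-L, beside 0.00, 0.00 and 0.03 for all genes tested. Above 0 were 6, 4 and 6 of the 10 members in the same order.

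**Figure D2:**
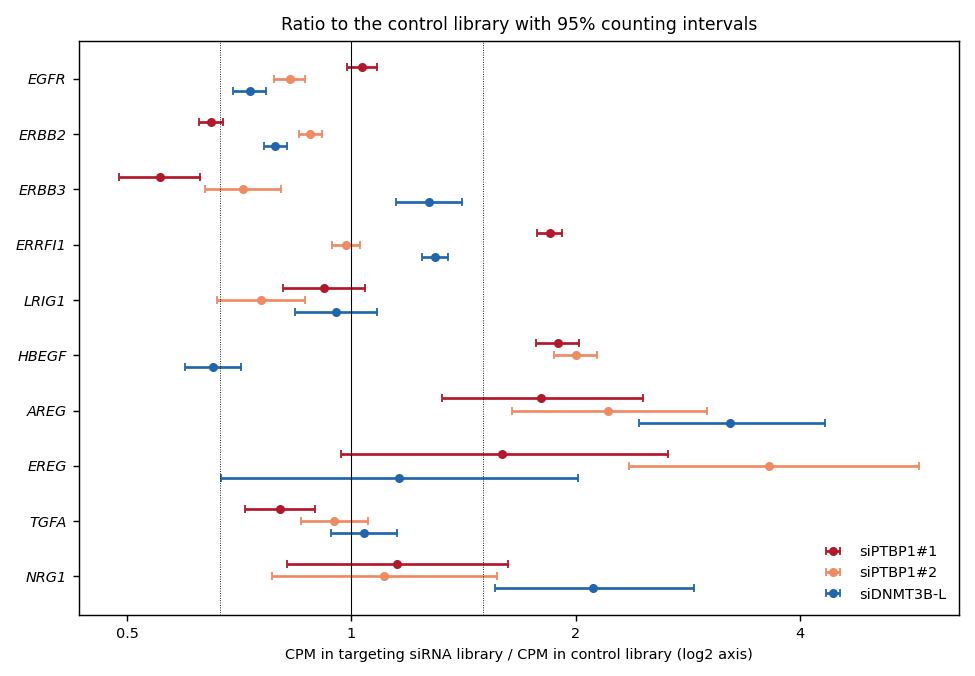
CPM of each member in a targeting siRNA library divided by CPM in the control library, on a log2 axis, with exact 95% counting intervals; dotted lines mark 1.5-fold. AREG lies above 1 with all 3 siRNAs, whereas HBEGF lies above 1 with both PTBP1 siRNAs and below 1 with siDNMT3B-L.

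HBEGF, heparin-binding EGF-like growth factor, which activates EGFR and ERBB4, had the widest range on the log2(CPM + 1) scale of the 8 members with an average of at least 5 CPM. It stood at 112 CPM with siPTBP1#1 and 119 CPM with siPTBP1#2, at 38.8 CPM with siDNMT3B-L and at 59.4 CPM in the control library. Both PTBP1 siRNA libraries therefore lay above both others, and the siDNMT3B-L library lay below the control library. Against control, HBEGF was 1.89-fold with siPTBP1#1 (95% counting interval 1.77 to 2.02), 2.00-fold with siPTBP1#2 (1.87 to 2.14) and 0.653-fold with siDNMT3B-L (0.599 to 0.712). At least as high with both PTBP1 siRNAs were 25 of the genes tested, 0.167%, HBEGF included. In limma, the log2 fold change on the log2(CPM + 1) scale was 0.95 with PTBP1 siRNA against control siRNA (standard error 0.31, unadjusted p = 0.00927, adjusted p = 0.9998 by Benjamini-Hochberg over all genes), and the difference did not pass. For PTBP1 siRNA against DNMT3B-L siRNA, which does not use the control library, it was 1.55 (standard error 0.31, unadjusted p = 0.000262, adjusted p = 0.34 from limma), higher in 2 of 2 libraries. The adjusted p of this comparison lay between 0.0583 (DESeq2) and 0.97 over the alternatives, so it did not pass under any of them.

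The 3 genes with the profile closest to that of HBEGF over the 4 libraries, by Euclidean distance of centred log2(CPM + 1) with 11074 genes compared, were SLC25A45 (distance 0.27), PTGR1 (0.33) and AC004381.6 (0.33). SLC25A45, a mitochondrial carrier family gene, stood at 17.0 and 14.9 CPM with the PTBP1 siRNAs, 5.24 CPM with siDNMT3B-L and 9.42 CPM in the control library. PTGR1 encodes a prostaglandin reductase. Like HBEGF, these genes stood above the control library with both PTBP1 siRNAs and below it with siDNMT3B-L. They were chosen for closeness to HBEGF over these same libraries, so the shared pattern restates the choice.

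AREG, amphiregulin, a lower-affinity EGFR ligand, was the member above the control library with every targeting siRNA past 1.5-fold. It stood at 5.27 CPM (127 read pairs) with siPTBP1#1, 6.48 CPM (150) with siPTBP1#2, 9.45 CPM (211) with siDNMT3B-L and 2.93 CPM (66) in the control library. The counting interval of the control library, 2.27 to 3.73 CPM, overlapped none of the other 3. AREG was 1.80-fold with siPTBP1#1 (counting interval 1.33 to 2.46), 2.21-fold with siPTBP1#2 (1.64 to 2.997) and 3.22-fold with siDNMT3B-L (2.43 to 4.32). In limma, DNMT3B-L siRNA against control siRNA gave a log2 fold change of 1.41 (standard error 0.40, unadjusted p = 0.00422, adjusted p = 0.998), higher in 1 of 1 library, and PTBP1 siRNA against control siRNA gave 0.80 (standard error 0.35, unadjusted p = 0.0403, adjusted p = 0.9998), higher in 2 of 2. Neither passed, and over the alternatives the estimate for PTBP1 siRNA lay between 0.45 and 1.00. The GRCh37 assembly carries a second, near-identical copy of AREG, so read pairs may have been divided between the copies or left uncounted, and the level of AREG is uncertain for that reason.

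EREG, epiregulin, a ligand of EGFR and ERBB4, was scarce in all libraries. It stood at 1.91 CPM (46 read pairs) with siPTBP1#1, 4.36 CPM (101) with siPTBP1#2, 1.39 CPM (31) with siDNMT3B-L and 1.20 CPM (27) in the control library. The siPTBP1#2 library stood apart from the other 3, at 3.64-fold of control (counting interval 2.36 to 5.78). The other intervals included 1: the ratio to control was 1.59 with siPTBP1#1 (0.969 to 2.66) and 1.16 with siDNMT3B-L (0.669 to 2.02). For PTBP1 siRNA against control siRNA, limma gave EREG a log2 fold change of 0.84 (adjusted p = 0.9998, standard error 0.41), and the value was 1.29 without siPTBP1#1 and 0.40 without siPTBP1#2, with no test. Over the other filters, pseudocounts and tools the estimate for EREG lay between 0.38 (pseudocount 5) and 1.39 (DESeq2). AREG, on the same chromosome, was highest with siDNMT3B-L, where the counting interval of EREG included the control level.

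TGFA, transforming growth factor alpha, the classical autocrine EGFR ligand of carcinoma cells, had the narrowest range of those 8. It stood at 26.7 CPM with siPTBP1#1, 31.5 CPM with siPTBP1#2, 34.6 CPM with siDNMT3B-L and 33.2 CPM in the control library. Its ratio to control was 0.802 with siPTBP1#1 (counting interval 0.721 to 0.892), and the intervals with siPTBP1#2 (0.855 to 1.05) and siDNMT3B-L (0.940 to 1.15) included 1. The highest TGFA library was 1.30 times the lowest, compared with 3.06 times for HBEGF.

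NRG1, neuregulin 1, which activates ERBB3, was low in all libraries and highest with siDNMT3B-L. It stood at 3.32 CPM (80 read pairs) with siPTBP1#1, 3.19 CPM (74) with siPTBP1#2, 6.09 CPM (136) with siDNMT3B-L and 2.89 CPM (65) in the control library. With siDNMT3B-L it was 2.11-fold of control (counting interval 1.56 to 2.88), whereas the intervals of both PTBP1 siRNAs included 1. In limma the log2 fold change of DNMT3B-L siRNA against control siRNA was 0.87 (standard error 0.40, unadjusted p = 0.0503, adjusted p = 0.998), which did not pass.

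Among the receptors, EGFR (chromosome 7, 55019021 to 55211628, GENCODE v29), which binds 4 of the 5 ligands, was lowest with siDNMT3B-L. It stood at 166 CPM with siPTBP1#1, 133 CPM with siPTBP1#2, 117 CPM with siDNMT3B-L and 160 CPM in the control library. The ratio to control was 1.03 with siPTBP1#1 (counting interval 0.988 to 1.08), 0.827 with siPTBP1#2 (0.788 to 0.868) and 0.730 with siDNMT3B-L (0.694 to 0.768). The PTBP1 siRNAs did not agree in direction, and the log2 fold change without siPTBP1#2 was 0.05. The limma log2 fold changes were -0.11 with PTBP1 siRNA (standard error 0.31, adjusted p = 0.9998) and -0.45 with DNMT3B-L siRNA (standard error 0.36, adjusted p = 0.998), both against control siRNA.

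ERBB2 (chromosome 17, 39687914 to 39730426), the preferred partner of the other receptors, was below the control library with each targeting siRNA. It stood at 191 CPM with siPTBP1#1, 259 CPM with siPTBP1#2, 233 CPM with siDNMT3B-L and 295 CPM in the control library. With siPTBP1#1 it was at 0.648 of control (counting interval 0.624 to 0.673), with siPTBP1#2 at 0.881 (0.850 to 0.912) and with siDNMT3B-L at 0.791 (0.762 to 0.820). The difference between the PTBP1 siRNAs was larger than counting error, and siPTBP1#1 was at 0.735 of siPTBP1#2 (0.707 to 0.764). With both, limma gave ERBB2 a log2 fold change of -0.40 against control siRNA (adjusted p = 0.9998, standard error 0.31), which was -0.18 without siPTBP1#1.

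ERBB3 (chromosome 12, 56076799 to 56103505), the neuregulin receptor, was lower with both PTBP1 siRNAs and higher with siDNMT3B-L than in the control library. It stood at 16.8 CPM with siPTBP1#1, 21.8 CPM with siPTBP1#2, 38.6 CPM with siDNMT3B-L and 30.4 CPM in the control library. The ratio to control was 0.553 with siPTBP1#1 (counting interval 0.488 to 0.627), 0.716 with siPTBP1#2 (0.637 to 0.805) and 1.27 with siDNMT3B-L (1.15 to 1.41). In this it ran opposite to HBEGF. The limma log2 fold change was -0.64 for PTBP1 siRNA against control siRNA (standard error 0.34, unadjusted p = 0.0801, adjusted p = 0.9998) and -0.98 for PTBP1 siRNA against DNMT3B-L siRNA (standard error 0.34, unadjusted p = 0.0128, adjusted p = 0.781), lower in 2 of 2 libraries in both, and neither passed.

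ERRFI1 (chromosome 1, 8004404 to 8026308), the kinase inhibitor induced by the pathway, separated the PTBP1 siRNAs. It stood at 339 CPM with siPTBP1#1, 181 CPM with siPTBP1#2, 238 CPM with siDNMT3B-L and 184 CPM in the control library. With siPTBP1#1 it was 1.85-fold of control (counting interval 1.78 to 1.92), with siPTBP1#2 0.984-fold (0.943 to 1.03) and with siDNMT3B-L 1.30-fold (1.24 to 1.35). The siPTBP1#1 library was the highest, at 1.87-fold of siPTBP1#2 (1.81 to 1.95), and the limma estimate of 0.43 on the log2 scale (adjusted p = 0.9998, standard error 0.37) was -0.02 without it. LRIG1 (chromosome 3, 66378797 to 66501263), the other inhibitor, stood at 20.5 CPM with siPTBP1#1, 16.8 CPM with siPTBP1#2, 21.2 CPM with siDNMT3B-L and 22.3 CPM in the control library, and its counting interval excluded 1 only with siPTBP1#2 (0.757-fold, 0.661 to 0.865).

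**Figure D3:**
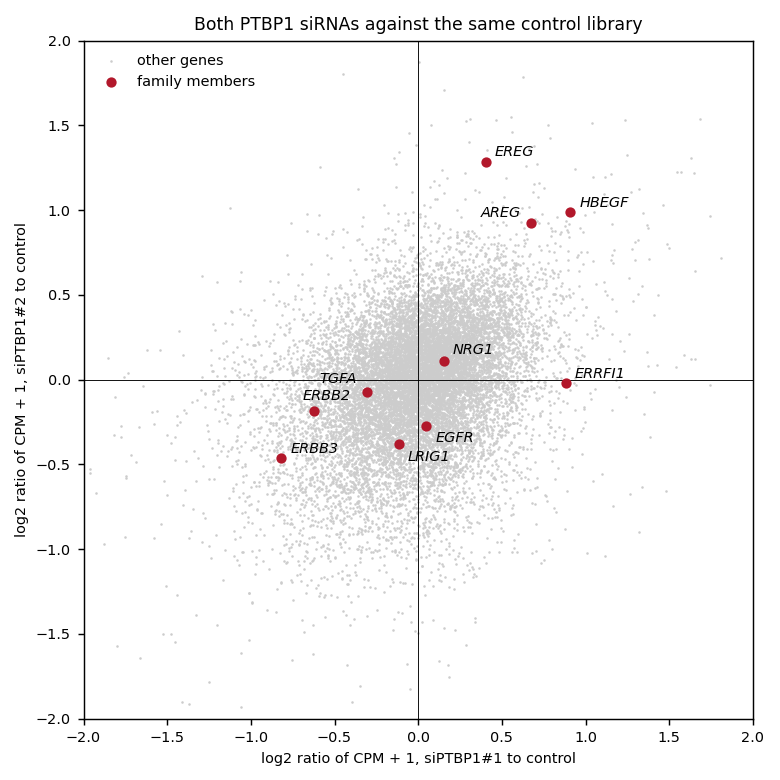
Log2 ratio of CPM + 1 to the control library with siPTBP1#1 (x axis) and siPTBP1#2 (y axis) for all genes tested (grey; 9 genes lie outside the axes) and the 10 members (red). HBEGF (0.91 and 0.99) and AREG (0.67 and 0.93) lie high on both axes, whereas ERRFI1 (0.88 and -0.02) lies high on one; both axes share the control library.

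No member (0 of 10) passed an adjusted p of 0.05 in any of the 3 comparisons with limma, and 0 passed with edgeR or DESeq2. Of all genes, limma called 0.00669% for PTBP1 siRNA against control siRNA, 0% for DNMT3B-L siRNA against control siRNA and 0.00669% for PTBP1 siRNA against DNMT3B-L siRNA. At an unadjusted p under 0.05, limma counted 2 members (AREG and HBEGF) for PTBP1 siRNA against control siRNA, where 2.65% of all genes were counted. For DNMT3B-L siRNA against control siRNA it counted 1 member (AREG) against 3.06% of all genes, and for PTBP1 siRNA against DNMT3B-L siRNA 2 members (HBEGF and ERBB3) against 5.33%. By the same count and in the same order, edgeR gave 2, 1 and 2 members (2.53%, 3.23% and 5.35% of all genes) and DESeq2 gave 1, 1 and 2 (1.12%, 1.55% and 2.92%). After adjustment DESeq2 called 0.0134%, 0.00669% and 0.0268% of all genes. The spread came from the 2 PTBP1 siRNA libraries alone, with 1 residual degree of freedom, and the fit takes the other conditions to vary as much. Limma drew the spread of each gene toward a trend over all genes tested, with 11.5 prior degrees of freedom. Its standard errors and p-values therefore rest mostly on that trend, and little on the gene's own 2 values. A p that misses the threshold does not show equal levels. For PTBP1 siRNA against control siRNA, limma called 0 genes lower after adjustment, and edgeR called 0 in either direction. The siRNA target PTBP1 was at 0.289 of control with siPTBP1#1 and at 0.1455 with siPTBP1#2. It thus did not pass with limma or edgeR either.

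Exon bases shared with other genes may bear on some values. For genes on opposite strands this depends on whether counting used strand, which the sources used here do not say. Of the 10 members, LRIG1 shares 907 exon bases with SLC25A26, ERBB2 765 with MIEN1 and PGAP3, EGFR 186 with its antisense gene EGFR-AS1, ERRFI1 155 with AL034417.4 and ERBB3 31 with AC034102.2. AC034102.2 lies on the same strand as ERBB3, whereas the others lie on the strand opposite to the member. AREG, EREG, HBEGF, TGFA and NRG1 share 0 exon bases with another gene in GENCODE v29.

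In each targeting library, the 7-base word of the 3′ UTR that went most with low values was looked up in the members, because siRNAs are known to act on transcripts that match their seed. It was found by regressing each library's log2(CPM + 1), less the mean of the other 3 libraries, on each of 13273 words across 10499 genes, with UTR length and GC content as covariates. The word was CTGCACA for siPTBP1#1, AAGATCA for siPTBP1#2 and AACAACA for siDNMT3B-L; whether these match the siRNAs' seeds was not analysed here. Genes with CTGCACA had a median log2 ratio of -0.19 with siPTBP1#1, against 0.04 for genes without it, genes with AAGATCA -0.18 with siPTBP1#2 against 0.03, and genes with AACAACA -0.10 with siDNMT3B-L against 0.06. Each word was chosen from these values, so the medians restate the choice. Of the members, ERBB3 held both PTBP1 siRNA words, EGFR held CTGCACA and AACAACA, and EREG held AACAACA at 2 places. The other 7 held none of the 3 in the 3′ UTR searched. For AREG and TGFA the 3′ UTR searched was 87 bases long, and for NRG1 374 bases. A single transcript per gene was searched, so words in other transcripts of a gene were not seen. The annotated exons of TGFA cover 4963 bases and those of NRG1 11328 bases, so little of these genes was searched. CTGCACA stood in 13.1%, AAGATCA in 11.2% and AACAACA in 11.6% of the 3′ UTRs searched. The same search in the control library gave TACCTCA, which stood in 10.96%. That word was not looked up in the members. The sites in ERBB3 and EGFR are shown with the word in capitals, in the letters of GENCODE v29 transcripts whose 3′ UTRs are 1450 bases (ERBB3) and 6011 bases (EGFR) long. The ERBB3 sites are given first.
ERBB3 CTGCACA site: cagcttcagCTGCACAcctctgtcc
ERBB3 AAGATCA site: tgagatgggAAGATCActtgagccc
EGFR CTGCACA site: ctatcatctCTGCACAtgcttagtg
EGFR AACAACA site: taaccgattAACAACAgacagcaat

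ERBB3, which held the words of both PTBP1 siRNAs, was below control with both. EGFR was at 1.03 of control with siPTBP1#1, whose word it held, and at 0.730 with siDNMT3B-L, whose word it also held. EREG was at 1.16 with siDNMT3B-L, whose word it held at 2 places. HBEGF was at 0.653 with siDNMT3B-L and held none of the words. ERBB2 was at 0.648 with siPTBP1#1 and held no such word in its 3′ UTR of 618 bases. The part of these words in the members' levels was not tested.

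The other genes of the pathway were taken as 6 lists. Of 7 further receptor and ligand genes, 4 were tested (EGF, BTC, NRG2 and NRG4), and 0 passed with limma. At 1.5-fold, 2 were lower with siPTBP1#1 (EGF and NRG2; 7.36% of all genes), 1 was higher with siPTBP1#2 (NRG4; 4.08%) and 0 differed with siDNMT3B-L. EGF, the founding ligand, stood at 3.45 CPM with siPTBP1#1, 6.09 CPM with siPTBP1#2, 7.16 CPM with siDNMT3B-L and 9.15 CPM in the control library. It was lowest with siPTBP1#1, at 0.377-fold of control (limma unadjusted p = 0.0438 for PTBP1 siRNA, the one gene of the list under 0.05). NRG2, a neuregulin, stood at 13.5 and 15.7 CPM with the PTBP1 siRNAs, 17.7 CPM with siDNMT3B-L and 23.0 CPM in the control library. With the PTBP1 siRNAs, EGF and NRG2 were thus on the other side of the control library from HBEGF, AREG and EREG.

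Of the 10 sheddase and rhomboid genes, 0 passed. At 1.5-fold 3 were lower with siDNMT3B-L, where 7.3% of all genes were, 2 were lower with siPTBP1#2, where 8.19% were, and 0 differed with siPTBP1#1. ADAM17, the main sheddase of the EGFR ligands AREG, HBEGF and TGFA, stood at 98.9 and 88.1 CPM with the PTBP1 siRNAs, 48.0 CPM with siDNMT3B-L and 80.1 CPM in the control library. It was at 0.60 of control with siDNMT3B-L. Between PTBP1 siRNA and DNMT3B-L siRNA its unadjusted p was 0.00983 in limma, where 5.33% of all genes were under 0.05. With the PTBP1 siRNAs ADAM17 was at 1.235 and 1.1 of control, and its limma unadjusted p for PTBP1 siRNA against control siRNA was 0.495. It was on the same sides of the control library as HBEGF, but with smaller ratios for the PTBP1 siRNAs. ADAM10, the other chief sheddase, was at 1.20 of control with siPTBP1#1, 0.640 with siPTBP1#2 and 0.961 with siDNMT3B-L. ADAM10 is named outside the rule used for the lists. BACE1, an aspartyl protease known to cleave NRG1, was at 0.505 of control with siDNMT3B-L, and RHBDF2 (iRHOM2), a partner of ADAM17, at 0.898 and 0.762 of control with the PTBP1 siRNAs.

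The adaptor and lipid kinase genes (15 tested) and the RAS and MAPK genes (12 tested) held 0 genes that passed. At 1.5-fold, 1 gene of the first list was lower with siPTBP1#1 and 1 with siDNMT3B-L, and 1 of the second was lower with siPTBP1#1 and 2 with siPTBP1#2, where of all genes 7.36% were lower with siPTBP1#1, 8.19% with siPTBP1#2 and 7.3% with siDNMT3B-L. In the first list SOS2, an exchange factor of RAS, was at 1.34 and 1.49 of control with the PTBP1 siRNAs, PLCG1, a phospholipase recruited to the receptors, at 0.699 and 0.866, and AKT1, a kinase downstream of PI3K, at 0.659 with siDNMT3B-L. In the second, MAPK3 (ERK1) was at 0.722 and 0.599 of control with the PTBP1 siRNAs, the kinase gene BRAF at 1.43 and 1.11, and the GTPase gene NRAS at 1.38 with siDNMT3B-L. Of the 21 receptor turnover genes tested, 0 passed. At 1.5-fold 1 was higher (NEDD4, 4.52% of all genes) and 1 lower (STAM2, 7.36%) with siPTBP1#1, and 0 differed with siPTBP1#2 or siDNMT3B-L. NEDD4 and STAM2 are named after their values were seen. SOCS4, which promotes EGFR degradation, was at 0.736 and 0.751 of control with the PTBP1 siRNAs, LRIG2, a relative of LRIG1, at 1.39 and 1.29, and LRIG3 at 1.46 with siDNMT3B-L. The medians of these 3 lists lay between -0.26 and 0.06 on the log2 scale.

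The 17 feedback and output genes of the pathway had the highest medians of the 6 lists with each targeting siRNA, and 0 passed with limma. This list, like the others, was chosen with earlier results of these data known, so its counts and medians may not be independent of that choice. With siPTBP1#1, 6 of 17 were 1.5-fold higher (4.52% of all genes), with siPTBP1#2 9 (4.08%) and with siDNMT3B-L 10 (4.6%). Lower by as much were 0 with siPTBP1#1 (7.36% of all genes), 0 with siPTBP1#2 (8.19%) and 0 with siDNMT3B-L (7.3%). Their median log2 ratios were 0.17, 0.61 and 0.73 in that order, beside 0.00, 0.00 and 0.03 for all genes tested. All 3 ratios share the control library, and 2 of the 17 (FOSL1 and DUSP4) were 1.5-fold higher with both PTBP1 siRNAs, where 0.95% of all genes were. At an unadjusted p under 0.05, limma counted 1 of them for PTBP1 siRNA (2.65% of all genes) and 4 for DNMT3B-L siRNA (3.06%), both against control siRNA. FOSL1 (FRA1), an AP-1 subunit induced by ERK activity, stood at 131 and 136 CPM with the PTBP1 siRNAs, 144 CPM with siDNMT3B-L and 70.4 CPM in the control library (limma unadjusted p = 0.0104 for PTBP1 siRNA and 0.012 for DNMT3B-L siRNA). DUSP4, a phosphatase of MAPKs, stood at 41.8 and 39.2 CPM with the PTBP1 siRNAs, 38.2 CPM with siDNMT3B-L and 25.4 CPM in the control library. DUSP5, a nuclear phosphatase of ERK, stood at 30.8 and 54.1 CPM with the PTBP1 siRNAs, 80.3 CPM with siDNMT3B-L and 28.3 CPM in the control library. Some genes counted with siPTBP1#2 or siDNMT3B-L were scarce in the control library, which limits the precision of their ratios. These were DUSP6 (0.311 CPM), SPRY1 (1.02 CPM), FOS (1.91 CPM) and SPRY4 (3.465 CPM). FOSL1 and DUSP4 were above the control library with each targeting siRNA, as AREG was, whereas HBEGF was below it with siDNMT3B-L.

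**Figure D4:**
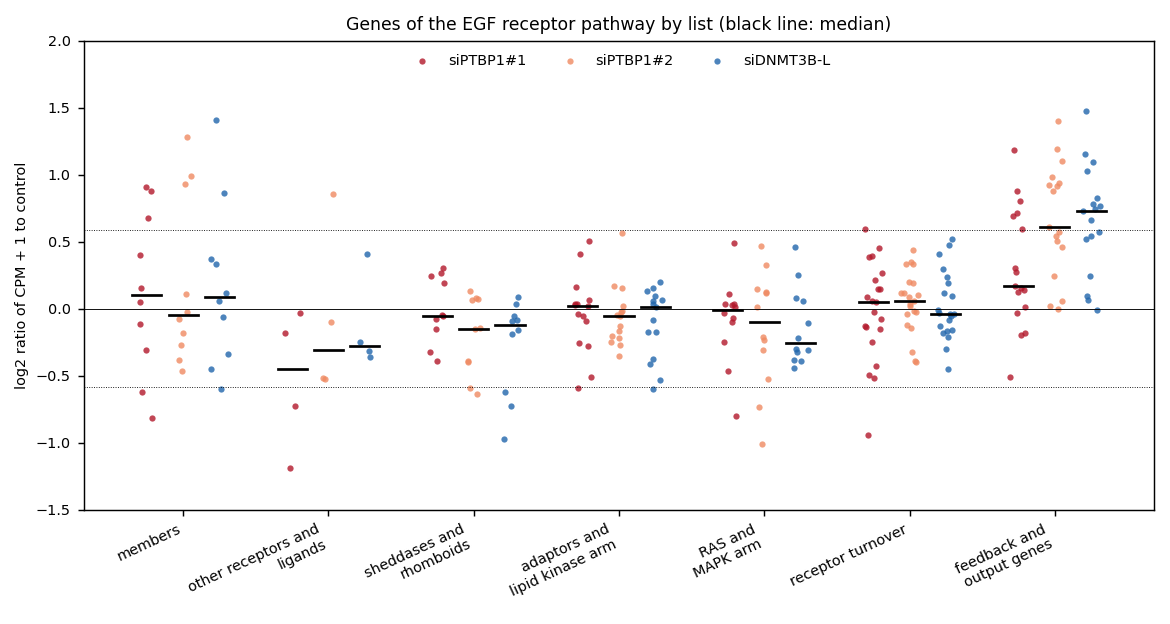
Log2 ratio of CPM + 1 to the control library for each tested gene of the members and the 6 pathway lists (points) with siPTBP1#1, siPTBP1#2 and siDNMT3B-L, black lines marking medians and dotted lines 1.5-fold. The feedback and output genes have medians of 0.17, 0.61 and 0.73, and the members 0.10, -0.05 and 0.09. The lists were chosen with earlier results of these data known.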

How the data were processed

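RNA of DU145 cells was sequenced as paired-end reads from 4 libraries. The build hg19 (GRCh37) and the tools HTSeq 0.6.1, HISAT2 2.1.0 and bcl2fastq 2.19.1 are listed by the submitters, without options or annotation release. Each library has its own table, in which the authors deposited CPM values by gene. Values were whole multiples of 1 read of a pair in 100% of rows (tolerance 0.001); between 176 and 223 rows per table stood at 0.5 read pair and were taken as 0 read pairs. Of 23585 genes listed anywhere, the 20474 common to all tables were kept, and no other gene exceeded 4.702 CPM.

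The main test was limma 3.58.1 (R 4.3.3, trend) on log2(CPM + 1) for 14942 genes with at least 1 CPM in at least 1 library, 1 fit by condition, with Benjamini-Hochberg adjustment over all genes and a threshold of 0.05. Such fold changes understate the change of low genes. Alternatives were count tests on recovered read pairs (DESeq2 1.42.0, edgeR 4.0.16), other filters, pseudocounts of 0.1 and 5, quantile normalization and TMM factors. Counting intervals (95%, exact Poisson for levels, exact conditional binomial for ratios) cover counting error only. No source says that cultures were separate. The spread behind the p-values and standard errors is that between libraries of different PTBP1 siRNAs, in limma mostly as a trend over all genes. It can hold effects particular to each siRNA beside technical variation, and these cannot be told apart here.

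The members and lists were chosen with earlier results of these data known. Genes named in each list were the 2 with the largest smaller change in 1 direction with both PTBP1 siRNAs and the 1 with the largest change with siDNMT3B-L, at an average CPM of at least 5; BTC and NRG4 are named only to complete the first list. Words of 7 bases present in at least 200 genes were taken from the 3′ UTR (at least 50 bases) of the transcript with the longest coding sequence in GENCODE v29, for genes with an average CPM of at least 5.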

Additional observations from a re-analysis of the deposited data

How the results depend on the processing

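No paired analysis was possible because the control and DNMT3B-L siRNA conditions have 1 library each, and #1 and #2 name 2 different PTBP1 siRNAs. With 1 PTBP1 siRNA library left out nothing remains to estimate the spread, so a value is given without a test: for HBEGF the log2 fold change was 0.91 to 0.99 against control siRNA and 1.51 to 1.59 against DNMT3B-L siRNA. In all 3 comparisons 0 members passed under every alternative that has a test, with 8 members tested at an average CPM of at least 5. Over all genes, in the order PTBP1 siRNA against control siRNA, DNMT3B-L siRNA against control siRNA and PTBP1 siRNA against DNMT3B-L siRNA, 1, 0 and 1 passed with limma, 0, 0 and 0 with no filter or quantile normalization, 0, 0 and 1 with edgeR and 2, 1 and 4 under DESeq2. The cause was not tested. With a pseudocount of 5, which shrinks ratios of low values, 1 member was 1.5-fold higher with both PTBP1 siRNAs (HBEGF; 0.375% of all genes), 1 was higher (AREG; 2.05%) and 0 lower (3.13%) with siDNMT3B-L. At an average CPM of at least 5, which leaves out EREG and NRG1, 1 was higher with siDNMT3B-L (AREG; 4.36% of 11075 genes). With a pseudocount of 0.1, EREG was added with siPTBP1#1 (4 members; 6.94% of all genes) and with both PTBP1 siRNAs (3 members; 2.08%), and TMM factors gave the reported 1.5-fold counts. At 2-fold, a stricter limit, 0 were higher and 0 lower with siPTBP1#1, 1 was higher with siPTBP1#2 (EREG), 1 higher (AREG) and 0 lower with siDNMT3B-L, and 0 were higher with both PTBP1 siRNAs. AREG, EREG and NRG1 rest on 27 to 211 read pairs, which limits their precision.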
